A study of Mus musculus with 7 samples.

Results

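Apoe, Trem2, Tyrobp, Lyz2 and Syk were followed through the cell types of the mouse hippocampus that could be named from marker genes and had wells with at least 10 cells. These 5 genes, of 55536 in the count tables, were matched by gene symbol, and their raw transcript counts were summed per well and cell type. Mice were wild type (WT) or hemizygous for the Arctic48 transgene, a human APP gene with 3 familial Alzheimer's mutations on a C57BL6/J background (Arc). They drank water (WT-veh, Arc-veh) or water with PMX205, a cyclic peptide antagonist of the complement receptor C5aR1, at 20 µg/ml (WT-PMX, Arc-PMX). Treatment lasted 12 weeks and hippocampi were taken at 10 months of age. Each group had 6 wells of single cells (SC) selected on CD11b and 6 wells of single nuclei (SN), 3 from females (F1 to F3) and 3 from males (M1 to M3). A single-cell well pooled hippocampal tissue from 2 to 3 animals that matched in sex, genotype and treatment, and a nuclei well held tissue of 1 mouse. The Arc mice carry 1 transgenic line crossed with C57BL6/J, from which the WT mice also came.

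Apolipoprotein E, the product of Apoe, is the main carrier of cholesterol and phospholipid between cells of the brain, and is made by astrocytes and by activated microglia. Trem2 is a lipid-sensing receptor of myeloid cells that binds apolipoprotein E among other ligands. It has no signalling tail of its own and pairs with the adaptor Tyrobp (DAP12), whose phosphorylated motif recruits the kinase Syk. Lyz2 encodes the lysozyme of macrophages and is a marker of myeloid cells that take up material. Microglia around amyloid plaques are known to raise Apoe and Tyrobp at an early step that does not need Trem2, and genes such as Lpl and Clec7a at a later step that does.

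In GRCm38, Apoe lies on the minus strand at chr7:19696109-19699188 and Tyrobp on the plus strand of the same chromosome at chr7:30413760-30417585. Trem2 lies at chr17:48346401-48354147 (plus strand), Lyz2 at chr10:117277331-117282321 (minus strand) and Syk at chr13:52583173-52648792 (plus strand). All are protein coding, and no other annotated gene overlaps any of them. RefSeq promoter windows (GRCm38.p6, 250 bases before to 50 bases after a start) were found for 4 of the 5 genes. The table held none for Tyrobp. The windows of Apoe, Trem2 and Lyz2, a ligand, its receptor and a marker of microglial state, are shown, searched for the purine-rich core GAGGAA or its complement TTCCTC, a core bound by myeloid Ets factors such as PU.1. Matches on either strand are in capitals, and the cores do not overlap each other.
Apoe, chr7:19699139-19699438, minus strand: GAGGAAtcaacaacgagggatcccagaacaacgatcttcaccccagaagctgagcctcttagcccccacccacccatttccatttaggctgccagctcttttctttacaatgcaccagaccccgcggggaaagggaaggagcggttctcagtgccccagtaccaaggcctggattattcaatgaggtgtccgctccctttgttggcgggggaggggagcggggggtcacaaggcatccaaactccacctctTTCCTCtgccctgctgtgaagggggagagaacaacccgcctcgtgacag
Trem2, chr17:48346151-48346450, plus strand: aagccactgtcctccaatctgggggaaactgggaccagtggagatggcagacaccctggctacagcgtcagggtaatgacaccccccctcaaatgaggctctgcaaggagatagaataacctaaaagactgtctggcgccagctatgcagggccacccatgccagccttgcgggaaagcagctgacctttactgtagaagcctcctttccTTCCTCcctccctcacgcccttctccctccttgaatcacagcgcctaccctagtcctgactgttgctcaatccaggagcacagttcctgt
Lyz2, chr10:117282223-117282522, minus strand: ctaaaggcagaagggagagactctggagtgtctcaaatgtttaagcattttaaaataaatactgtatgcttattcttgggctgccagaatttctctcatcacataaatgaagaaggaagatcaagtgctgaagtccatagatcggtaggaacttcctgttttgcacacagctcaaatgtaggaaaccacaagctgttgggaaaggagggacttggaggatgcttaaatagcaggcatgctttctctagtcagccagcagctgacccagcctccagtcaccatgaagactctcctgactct
The Apoe window held 2 such cores, the Trem2 window 1, and the Lyz2 window and the Syk window nearest to its annotated start held 0. Of all 32851 promoter windows, 9289 (28.3%) held at least 1, so a match is common and is given as a description only.

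The tables listed 1516119 barcodes, of which 3823 single cells and 43885 nuclei passed the filters. Of 44442 barcode names kept, 4216 occurred in more than 1 of the 7 sublibraries, which are separate cells that share a name. Single-cell wells held 1135 to 1430787 transcripts and nuclei wells 4389302 to 30001277. Only wells with at least 10 cells of a type were used, so single-cell microglia rest on 5 Arc-veh wells (1331 cells), 6 Arc-PMX wells (624), 3 WT-veh wells (107) and 3 WT-PMX wells (139). Microglial nuclei rest on 6 Arc-veh, 6 Arc-PMX, 4 WT-veh and 5 WT-PMX wells, and astrocyte nuclei on 6 wells of each group. App was counted against the mouse genome, so it is no direct measure of the human APP transgene. It lay in neuronal nuclei between 446 and 530 CPM (counts scaled to 1000000 transcripts of the well and type) in WT-veh and between 495 and 574 in WT-PMX. In Arc-veh it lay between 569 and 795 and in Arc-PMX between 545 and 688, so WT-PMX overlapped both Arc groups. The study left out 1 WT sample as Arctic without naming it, and no well was left out or relabelled here. The single-cell well WT-veh F2 held all 7 transcripts of the plaque marker Lpl that were found in WT single-cell microglia (112 CPM, with 156 to 693 CPM in Arc wells), so the genotype tests of Apoe, Trem2, Tyrobp and the listed genes in single-cell microglia are also given without it. An exact test of 5 Arc-veh wells against the 2 WT-veh wells then left cannot go below 0.0952. In microglial sums all 16 microglial markers were detected in every group, in both preparations.

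Apoe was found in every named cell type that had wells with at least 10 cells. T cell nuclei, 49 in all, had 1 such well, of 13 nuclei in Arc-veh M2, with 1 count each of Apoe and Syk and 0 of the others, and are left out of what follows. In the other types of nuclei, Trem2, Tyrobp, Lyz2 and Syk were nearly restricted to microglia. Values are means of CPM over wells. In nuclei, Apoe was highest in astrocytes (275 ± 109 CPM, SD, n = 24 wells, 101 to 489), followed by microglia (201 ± 158, n = 21, 0 to 438) and ependymal cells (99.8 ± 62.7, n = 13). The ranges of the 3 types overlap. The order of the first 2 holds over all wells and differs by genotype, since in Arc-veh the mean was 293 CPM in microglia and 250.1 in astrocytes, and in WT-veh 55.8 and 240 CPM. Fibroblasts (63.6 CPM), endothelial cells (54.2), pericytes (49.5), oligodendrocytes (46.3), oligodendrocyte precursors (40.6) and choroid plexus cells (25.8) followed with neighbouring means that lay within the spread of their wells. Neuronal nuclei, the deepest type sequenced, held 1.58 CPM. Within the CD11b-selected cells the order was microglia (827 ± 1058 CPM, n = 17, 0 to 3826), pericytes (498, n = 7), endothelial cells (361, n = 9), choroid plexus or ependymal cells (178, n = 6) and the few astrocytes that came through the selection (121, n = 5). This order pools unequal numbers of Arc and WT wells, 11 and 6 for microglia. WT microglia alone lay between 0 and 321 CPM. The WT pericyte wells, WT-veh F1 and WT-PMX F2 and M2, held 1, 0 and 1 counts of Apoe, so no order is given within WT.

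**Figure D1:**
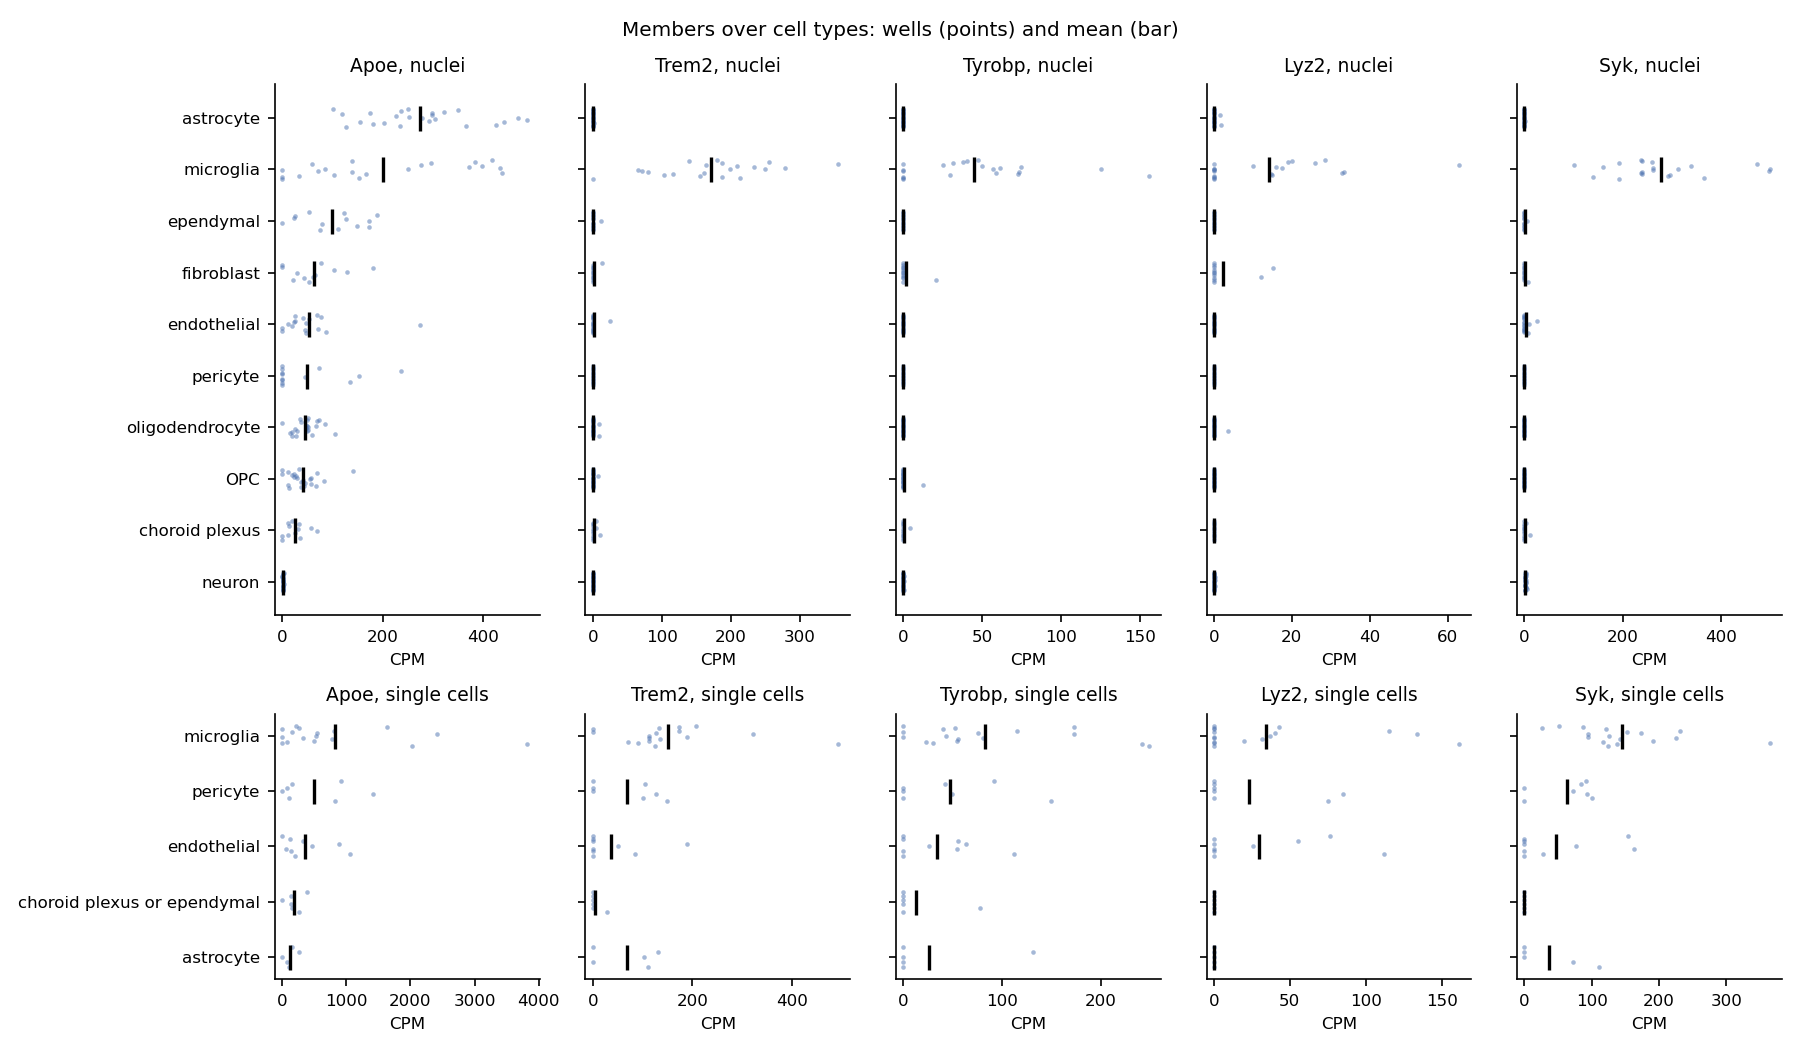
CPM of each gene (linear axis, scaled per panel) for each named cell type of nuclei (top, T cells left out) and single cells (bottom), with a point per well of at least 10 cells and a black bar at the mean. Apoe is spread over glial and vascular types, and the means of Trem2, Tyrobp, Lyz2 and Syk are highest in microglia in both preparations, with lower means in other types of single cells.

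Trem2 was at 172 ± 82.2 CPM in microglial nuclei (n = 21) and at most 1.68 CPM in the mean of any other of these types of nuclei. Tyrobp stood at 44.7 CPM, Lyz2 at 14.1 CPM and Syk at 278 ± 109 CPM (101 to 500) in microglial nuclei. Syk in neuronal nuclei was 1.86 CPM. In single-cell microglia Trem2 was at 152 CPM, Tyrobp at 82.7, Lyz2 at 34.3 and Syk at 145 CPM. Trem2 also reached 69.2 CPM in single-cell pericytes, 69.1 in single-cell astrocytes and 36.1 in single-cell endothelial cells, types of at most 9 wells, on 26, 3 and 11 counts. Syk, at 63.2 CPM, and Tyrobp, at 47.7 CPM, were likewise found in single-cell pericytes. Lyz1, the paralogue next to Lyz2 on chromosome 10, had 0 counts in microglia of both preparations.

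Shares of cells with at least 1 transcript were taken after cells had been thinned to 500 transcripts, leaving out cells with fewer. Shares and medians before thinning are over all cells of the type. Apoe was then present in 39.7% of single-cell microglia (47.4% before thinning, median 655.5 transcripts), 11.01% of microglial nuclei (21.4%, median 1006) and 13.3% of astrocyte nuclei (39.1%, median 1771). In neuronal nuclei, taken as the background of nuclei (median 8278.5 transcripts), it was present in 0.0948% (1.61% before thinning). Trem2 was present in 12.6% of single-cell microglia and 8.18% of microglial nuclei against 0.0158% of neuronal nuclei, and Syk in 6.32% and 10.5% against 0.103%. The shares of Tyrobp were 6.75% and 2.36%, and those of Lyz2 4.15% and 1.22%, in single-cell microglia and microglial nuclei. Each of these microglial shares was above the neuronal one. Neuronal nuclei are no background for the CD11b-selected cells, which are another preparation. Among those cells Apoe was present in 9.09% of astrocytes after thinning. Lyz2 was at 30.0 CPM in single-cell endothelial cells, on 11 counts.

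Likeness to other genes was taken as Pearson's r of log2 CPM over 184 sums of a well and type of nuclei, across 9980 genes. These sums share wells and differ in depth, so r is a description. Trem2 was most like Gm40645 (r = 0.920), Nlrp1c-ps, the complement subunit C1qb, Pld4 and Wdfy4 (0.902), and Syk was most like the costimulatory gene Cd86 (0.957), Sla, the transporter Slc2a5, Pld4 and Gna15. Tyrobp was most like Cd48 (0.828), the inhibitory receptor Lilrb4a, Ncf1, Gm40645 and the Fc receptor Fcgr3. Lyz2 was most like the integrin Itgax (0.888), Lilrb4a, Olfr111, Gm26714 and Gm49339. For Apoe, which is spread over types, the highest values were lower, at 0.580 for the lipid exporter Abca1 and then Agmo, Gramd3, Irak2 and Tcf7l2 (0.561). Over the 24 astrocyte wells alone Apoe was most like the gap junction gene Gja1 (0.789), Kmt2c and Gpr37l1.

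The comparison of Arc-veh with WT-veh asks how the transgene went with these genes in each type. In microglial nuclei, Apoe in WT-veh was 0 CPM in F1, 152 in M1, 71.0 in F2 and 0 in M2, on 8 counts in all. In Arc-veh it was 104 CPM in F1, 167 in M1, 435 in F2, 372 in M2, 297 in F3 and 384 in M3. Arc-veh F1 was the only Arc-veh well below the highest WT-veh well. The group means were 55.8 ± 72.4 and 293 ± 131 CPM. Apoe rose by 2.08 on the log2 scale (SE 0.60, adjusted p = 0.0172 by the quasi-likelihood test of edgeR, Benjamini-Hochberg over all genes tested), in a comparison that called 11.9% of 2192 genes. Apoe was the 1 member called of the 3 members tested there, the others being Trem2 and Syk. Tyrobp and Lyz2 did not pass the filter on low counts. Markers of border macrophages differed between the same groups, with summed levels of 457 to 1855 CPM in WT-veh, where 5 of 7 were detected, and 74.3 to 418 in Arc-veh. Stab1 was at 754 against 165 CPM, F13a1 at 170 against 45.0 and Mrc1 at 94.3 against 56.0, while Pf4 and Cbr2 were at 0 in WT-veh, and the part of such cells in the Apoe value was not tested. The call was lost without WT-veh F1 (adjusted p = 0.0608), F2 (0.104) or M2 (0.0567), with log2 values of 1.82 to 2.99 when any 1 well was left out, and it held when both treatments were averaged (2.23, SE 0.42, adjusted p = 8.14e-05 by edgeR, 20.3% of genes called).

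In single-cell microglia, Apoe in WT-veh was 321 CPM in F2 (20 counts), 0 in M2 and 152 in F3 (1 count), and in WT-PMX 0 in F2, 70.1 in M2 (3 counts) and 0 in M3. In Arc-veh it was 3826 CPM in F1 (2961 counts), 528 in F2, 2413 in M2, 808 in F3 and 1640 in M3. No WT well reached the lowest Arc-veh well, and the 5 Arc-veh wells spanned a wide range. The Arc-veh minus WT-veh difference was 3.35 on the log2 scale (SE 0.79), but its adjusted p was 0.119 by edgeR. That comparison called 0 of 1125 genes (0%), with 126 at an unadjusted p under 0.05, and DESeq2 called 11. Averaged over treatment, Apoe rose by 3.89 (SE 0.66, adjusted p = 0.000252 by edgeR with Benjamini-Hochberg adjustment), where 12.3% of genes were called. Apoe was the only member tested in this fit. Without WT-veh F2 the Arc-veh minus WT-veh value was 5.31 (adjusted p = 0.0689 by edgeR), and 23 genes were called in place of 0, and the average over treatment was 4.87 (SE 0.91, adjusted p = 0.000764 by edgeR). Without Arc-veh F2 the Arc-veh minus WT-veh value was 3.70 with an adjusted p of 0.0154 by edgeR, and 3 genes were called.

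Apoe in astrocyte nuclei was not called between genotypes. The WT-veh wells ran from 119 to 489 CPM (median 205) and the Arc-veh wells from 180 to 350 (median 245), so the groups overlapped throughout. The difference was -0.07 on the log2 scale (SE 0.24, adjusted p = 0.922 by edgeR with Benjamini-Hochberg adjustment), and the comparison called 12.6% of 7302 genes. Averaged over treatment it was -0.31 (SE 0.17, adjusted p = 0.219, 20.1% of genes called), and without Arc-PMX F1 it was -0.46 and passed (adjusted p = 0.0242 by edgeR). A p above the threshold does not show that the levels were equal.

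**Figure D2:**
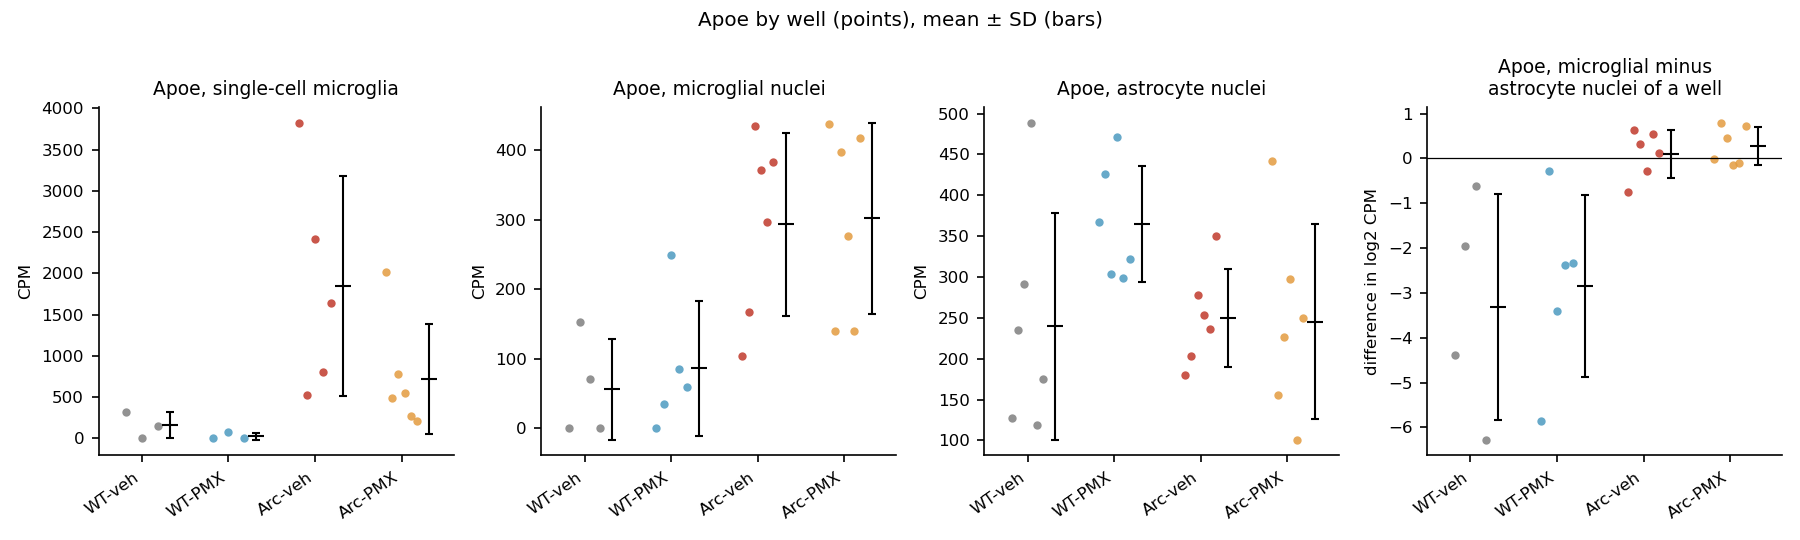
Apoe (CPM) in each well of single-cell microglia, microglial nuclei and astrocyte nuclei, by group, and the log2 CPM of microglial minus astrocyte nuclei of a well (right), with means and SD as bars. Arc wells of microglia lie mostly above WT wells, between 104 and 435 CPM for Arc-veh nuclei and between 528 and 3826 for Arc-veh cells, while the astrocyte groups overlap between 101 and 489 CPM, and the difference between the types is below 0 in all WT wells.

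The difference between the cell types was tested within wells, in a test chosen after the data had been seen, as log2 CPM of Apoe in microglial nuclei minus that in astrocyte nuclei of the same mouse. In WT-veh it was -4.38 in F1, -1.95 in F2, -0.61 in M1 and -6.27 in M2 (mean -3.30 ± 2.52, SD). F1 and M2 held 0 microglial Apoe counts, so their values are set by the prior count and by their astrocyte levels. The prior count of 2 was scaled by the depth of each sum over the mean depth, so shallow sums received fewer than 2 counts. The sizes below depend on this prior count. In Arc-veh it ran from -0.76 to 0.63 (mean 0.10 ± 0.53, n = 6), and in Arc-PMX the mean was 0.29 ± 0.42 (n = 6). In all 9 WT wells Apoe was thus lower in microglia than in astrocytes, and the Arc wells lay on either side of 0. Arc-veh exceeded WT-veh by 3.40 (two-sided exact permutation test on the size of the difference, p = 0.00952, the smallest possible being 0.00476) and Arc-PMX exceeded WT-PMX, whose mean was -2.85 ± 2.03 (n = 5), by 3.13 (p = 0.00216, the smallest possible, exact permutation). With permutations kept within treatment, the difference was 3.27 (exact permutation p = 3.09e-05, smallest possible 1.03e-05). With a prior count of 0.5 the Arc-veh minus WT-veh value was 4.41 (exact permutation p = 0.00952) and the value within treatment 4.00 (p = 3.09e-05). In CPM in place of the log scale Arc-veh minus WT-veh was 273 (exact permutation p = 0.00476), and leaving out any 1 well kept the log2 value of Arc-veh minus WT-veh between 2.41 and 4.30. Astrocyte markers in microglial nuclei had medians of 412 CPM in Arc-veh, 418 in Arc-PMX, 411 in WT-veh and 593 in WT-PMX, where astrocyte nuclei themselves had medians of 28448 to 34863. Microglial markers in astrocyte nuclei had medians of 50.6 to 73.3 CPM.

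PMX205 was given to ask what blocking C5aR1 did in either genotype. In Arc-PMX single-cell microglia Apoe was 2018 CPM in F1, 777 in M1, 545 in F3, 491 in F2, 264 in M2 and 208 in M3 (median 518). F1 stood apart from the 5 other wells and lay within the Arc-veh range of 528 to 3826. The value of Arc-PMX minus Arc-veh was -1.54 on the log2 scale (SE 0.45, adjusted p = 0.174 by edgeR), in a comparison that called 0 of 1125 genes (0%), with 113 at an unadjusted p under 0.05 and 0 by DESeq2. The call changed with single wells. Without Arc-PMX F1 the value was -2.02 (adjusted p = 0.0493 by edgeR) and 3 genes were called, and without Arc-veh F2 it was -1.82 (adjusted p = 0.0191) and 21 genes were called. Without Arc-veh M3, 5 genes were called.

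In microglial nuclei the same comparison gave 0.02 (SE 0.26, adjusted p = 0.9997 by edgeR), with Arc-PMX at 302 ± 137 CPM (140 to 438) and Arc-veh at 293 ± 131. The comparison called 1 of 2192 genes (0.0456%), which was no member. In astrocyte nuclei it gave 0.04, with Arc-PMX wells between 101 and 443 CPM, where 0.0137% of genes were called. The effect in single cells minus that in nuclei was -1.55 for Apoe (p = 0.00571, adjusted p = 0.597 by edgeR), with 0 of 3471 genes called and 237 at an unadjusted p under 0.05, and -1.45 by the exact permutation test (p = 0.102). In WT, PMX205 went with 0.51 for Apoe in astrocyte nuclei (SE 0.24, adjusted p = 0.9998 by edgeR, 0 of 7302 genes called, 315 at an unadjusted p under 0.05 and 0 called by DESeq2), where WT-PMX wells lay between 299 and 471 CPM. In microglial nuclei of WT it was -0.29 (adjusted p = 0.993) and in WT single cells -2.63 (SE 1.47, adjusted p = 0.575), on 3 counts in WT-PMX. The value in WT single cells ran from -7.68 to -0.65 with any 1 well left out. As female minus male, Apoe gave 0.13 in microglial nuclei, -0.22 in astrocyte nuclei and 0.44 in single-cell microglia and was not called, where 0.137, 0.151 and 0.0889% of genes were.

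The share of cytosolic ribosomal protein transcripts moved with Apoe in single-cell microglia. It was 0.333 ± 0.171% in Arc-veh (0.131 to 0.563%, n = 5), 0.150% in WT-veh (0.120 to 0.198%), 0.0777% in WT-PMX and 0.198% in Arc-PMX. The exact permutation test of the share gave p = 0.107 for Arc-veh against WT-veh and p = 0.147 for Arc-PMX against Arc-veh. Mitochondrial transcripts were 2.86% of the total for Arc-veh against 1.30% for WT-veh (exact permutation p = 0.0357, the smallest possible). Counted per 100 ribosomal protein transcripts, a scale chosen after the data had been seen, Apoe was 50.6 ± 12.5 in Arc-veh (n = 5), 11.5 ± 13.7 in WT-veh (n = 3), 2.56 in WT-PMX and 31.9 ± 13.3 in Arc-PMX (n = 6). On this scale Arc-veh exceeded WT-veh (exact permutation p = 0.0357, the smallest possible), and Arc-PMX against Arc-veh gave p = 0.0519. In nuclei the values were 37.5 in Arc-veh, 7.48 in WT-veh (exact permutation p = 0.0190) and 37.6 in Arc-PMX.

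**Figure D3:**
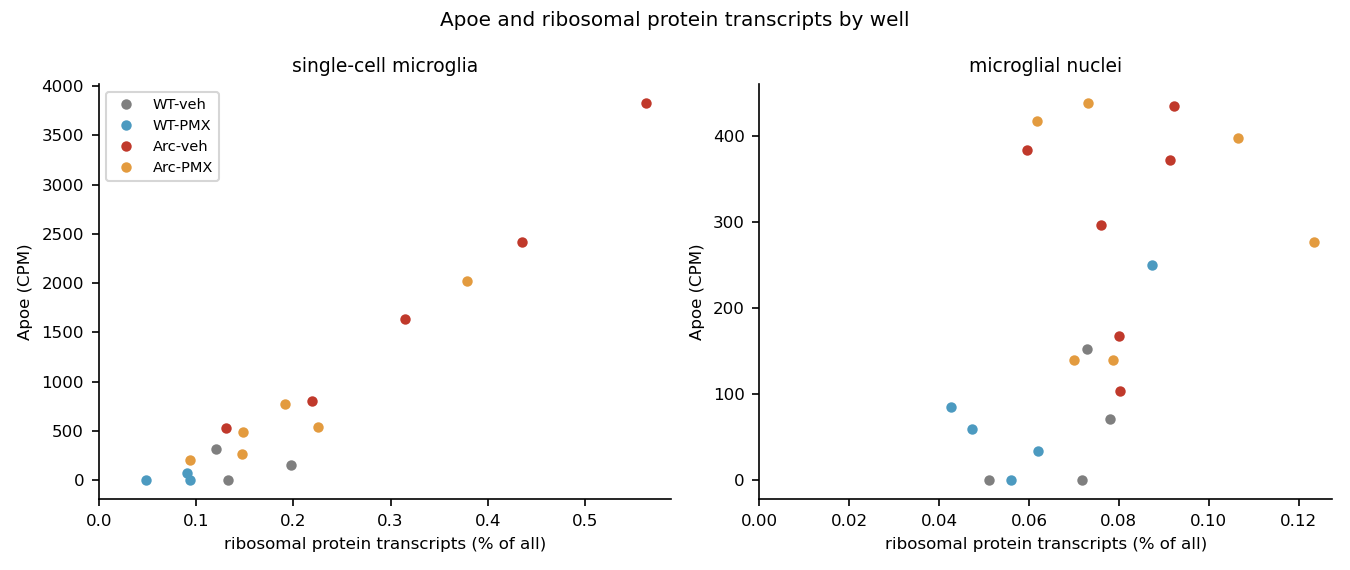
Apoe (CPM) against the percent of transcripts from ribosomal protein genes in each well of single-cell microglia and of microglial nuclei, coloured by group. Among single-cell wells the Arc-veh well with the highest share, 0.563%, also holds the most Apoe, 3826 CPM, and all nuclei wells lie below 0.131%, the lowest share of an Arc-veh single-cell well.

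Counts summed over cells cannot tell a larger share of cells with a transcript from more transcripts per cell. The share of thinned cells in which a transcript is found also rises with transcripts per cell, so it cannot decide this either. Shares by group are given as a description. After thinning, Apoe was present in 49.8% of Arc-veh single-cell microglia (517 of 1039 cells, exact 95% interval 46.7 to 52.8%), 27.4% in Arc-PMX (115 of 419, 23.2 to 31.99%), 11.9% in WT-veh (8 of 67) and 1.11% in WT-PMX (1 of 90). Among microglial nuclei it was present in 13.4% in Arc-veh and 12.4% in Arc-PMX, against 1.54% in WT-veh and 2.36% in WT-PMX. Astrocyte nuclei held Apoe in 12.4% of nuclei in Arc-veh, 11.5% in Arc-PMX, 11.8% in WT-veh and 17.0% in WT-PMX. The intervals cover counting error only, and cells of a well are not replicates.

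Trem2, the receptor, showed overlapping groups. In microglial nuclei of WT-veh it was 0 CPM in F1, 213 in M1, 71.0 in F2 and 65.3 in M2, and in Arc-veh it ran from 104 to 278 (median 211). WT-PMX wells lay between 155 and 356 CPM, the highest range of the 4 groups, and Arc-PMX wells between 80.0 and 209. Arc-veh minus WT-veh was 1.02 (SE 0.48, adjusted p = 0.184 by edgeR with Benjamini-Hochberg adjustment), and the average over treatment was 0.31 (adjusted p = 0.555). When each cell was named by its own marker score in place of its cluster, these values were 1.98 (adjusted p = 0.0294) and 1.35 (adjusted p = 0.0106), so the call depends on which nuclei are taken as microglia. Without WT-veh M1 Arc-veh minus WT-veh was 1.96 (adjusted p = 0.0496 by edgeR).

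In single-cell microglia Trem2 was 492 CPM in Arc-veh F1, 113 in F2, 322 in M2, 173 in F3 and 173 in M3. WT-veh held 112 in F2, 190 in M2 and 0 in F3, and Arc-PMX 113 to 208 (median 130). The groups overlapped. The exact permutation test gave p = 0.214 for Arc-veh against WT-veh and p = 0.104 for Arc-PMX against Arc-veh. The latter difference was -115 CPM, and ran from -150.2 to -55.3 with any 1 well left out. It was -128 without Arc-PMX M3 (exact permutation p = 0.0397) and -150.2 without Arc-veh F2 (exact permutation p = 0.0286). Trem2 was too sparse there for the edgeR fit, and without the filter on low counts it gave 1.64 averaged over treatment (adjusted p = 0.0275). Without WT-veh F2, Trem2 entered the fit at 1.40 (adjusted p = 0.179 by edgeR), and Arc-veh exceeded WT-veh by 160 CPM (exact permutation p = 0.381).

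Tyrobp, the adaptor, was at 0 in all 4 WT-veh wells of microglial nuclei. In Arc-veh it was 29.7 CPM in F1, 72.8 in M1, 60.9 in F2, 74.4 in M2, 31.3 in F3 and 37.9 in M3, on 2 to 14 counts a well. All Arc-veh wells thus lay above WT-veh, but the share of all genes that do so was not taken. Tyrobp was not in the edgeR fit, where 11.9% of the genes tested were called. Arc-PMX was at 49.0 ± 16.3 CPM. With counts pooled over the wells of a group, Arc-veh (51.6 CPM) was at least 1.82-fold and Arc-PMX (54.0 CPM) at least 1.91-fold above the 28.3 CPM that 3 counts over the WT-veh wells would give (two-sided exact permutation test that doubles the smaller tail, p = 0.00952 for each, the smallest such a test allows with 6 against 4 wells). Over the 57 such tests run, the lowest adjusted p was 0.109, so none passed the correction. WT-PMX wells held 0, 155, 125, 56.8 and 0 CPM of Tyrobp, and WT-PMX against WT-veh gave an exact permutation p of 0.238. The WT-PMX range thus includes the whole Arc range.

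In single-cell microglia Tyrobp was 242 CPM in Arc-veh F1, 42.8 in F2, 173 in M2, 115 in F3 and 173 in M3. WT-veh had 80.2 CPM in F2 and 0 in the other wells, and Arc-PMX ran from 0 to 248 (median 54.8). The groups overlapped, with an exact permutation p of 0.0714 for Arc-veh against WT-veh and 0.212 for Arc-PMX against Arc-veh. All 5 WT-veh counts of Tyrobp lay in F2, and without it Arc-veh exceeded WT-veh by 149 CPM (exact permutation p = 0.0952). Arc-PMX minus Arc-veh was -68.1 CPM, and ran from -102 to -45.0 with any 1 well left out. Without Arc-PMX F1 it was -102 (exact permutation p = 0.0397).

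**Figure D4:**
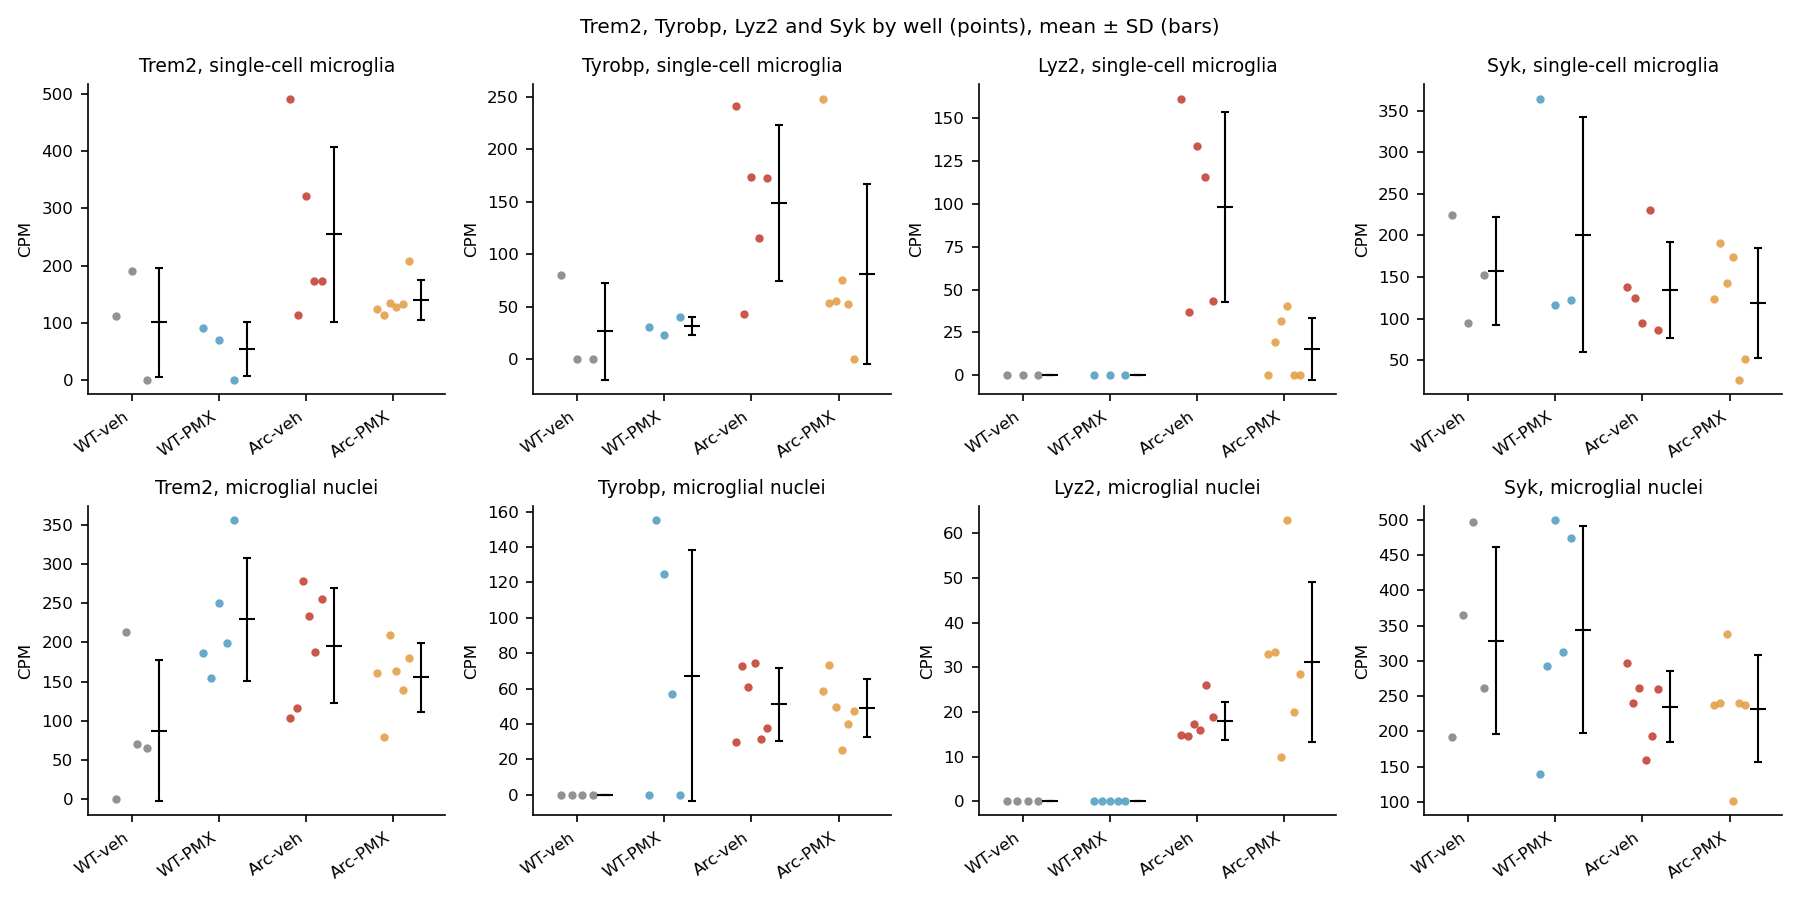
Trem2, Tyrobp, Lyz2 and Syk (CPM) in each well of single-cell microglia and microglial nuclei, by group, with means and SD as bars. Lyz2 is at 0 in all WT wells, Arc-veh single-cell wells lie between 36.7 and 162 CPM, and Syk overlaps between all groups.

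Lyz2, the macrophage lysozyme, was at 0 in all 9 WT wells of microglial nuclei and all 6 WT wells of single-cell microglia. In Arc-veh single cells it was 162 CPM in F1, 36.7 in F2, 134 in M2, 115 in F3 and 43.1 in M3. In Arc-PMX it was 0 in F1, M2 and M3, 19.6 in F2, 31.7 in M1 and 40.6 in F3. Arc-PMX wells lay below Arc-veh except for an overlap between 36.7 and 40.6 CPM. With counts pooled over wells, to which F1 gave the most, Arc-veh (125 CPM) was at least 3.31-fold above the 37.8 CPM that 3 counts over the WT-veh wells would give (two-sided exact permutation p = 0.0357, the smallest possible, adjusted p over 0.05). Arc-PMX had 0.156 of the Arc-veh mean (exact permutation p = 0.00866, smallest possible 0.00433), which did not pass the correction over 57 tests either. Without the filter on low counts, edgeR gave -2.26 for Arc-PMX minus Arc-veh (adjusted p = 0.000546) and 5.80 for Arc minus WT averaged over treatment (adjusted p = 0.00537). The size of 5.80 depends on the prior count, since WT is at 0.

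In microglial nuclei Lyz2 was 17.96 ± 4.29 CPM in Arc-veh (14.6 to 26.0, n = 6) and 31.3 ± 17.9 in Arc-PMX (9.95 to 62.9, n = 6), on 1 to 9 counts a well. Against the 0 counts of WT-veh the exact permutation p was 0.00952 for either Arc group (adjusted p = 0.109 over the 57 tests). The pooled Arc-veh level of 18.7 CPM was under the 28.3 CPM that 3 counts over the WT-veh wells would give, so this depth does not place Arc-veh above WT-veh, and Arc-PMX was at least 1.12-fold above that level. Without the filter on low counts, edgeR gave 4.29 for Arc minus WT averaged over treatment (adjusted p = 0.0139) and 3.89 for Arc-veh minus WT-veh (adjusted p = 0.530), fitted values that depend on the prior count since WT is at 0. Arc-PMX exceeded Arc-veh by 13.3 CPM (exact permutation p = 0.0779), and by 6.97 to 17.6 CPM with any 1 well left out. Without Arc-PMX F2 the difference was 17.6 CPM (exact permutation p = 0.00866). The effect of PMX205 in Arc differed between preparations for Lyz2, in a test chosen after the data had been seen. Single cells minus nuclei was -2.20 on the log2 scale, made up of -1.81 in cells and 0.38 in nuclei (exact permutation within preparations, p = 0.000965). Its size depends on the prior count, since 3 Arc-PMX wells of cells were at 0, and was -3.36 with a prior count of 0.5 (exact permutation p = 0.00192). For Trem2 (-0.37), Tyrobp (-0.99) and Syk (-0.23) the same difference had exact permutation p-values of 0.448, 0.184 and 0.666.

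Syk, the kinase, overlapped between the groups. In microglial nuclei it was 192 CPM in F1, 365 in M1, 497 in F2 and 261 in M2 of WT-veh, 159 to 297 in Arc-veh (median 250), 140 to 499 in WT-PMX and 101 to 338 in Arc-PMX. Arc-veh minus WT-veh was -0.60 (SE 0.31, adjusted p = 0.241 by edgeR with Benjamini-Hochberg adjustment) and the average over treatment -0.53 (SE 0.21, adjusted p = 0.0780), which passed without WT-veh F1 (-0.61, adjusted p = 0.0454 by edgeR), WT-PMX F1 (-0.64, 0.0299) or Arc-PMX F2 (-0.59, 0.0447). Arc-veh and Arc-PMX had nearly equal means, 235 and 232 CPM. In single-cell microglia Syk was 86.3 to 231 CPM in Arc-veh, 94.9 to 225 in WT-veh and 26.4 to 192 in Arc-PMX, with an exact permutation p of 0.536 for Arc-veh against WT-veh and 0.667 for Arc-PMX against Arc-veh.

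**Figure D5:**
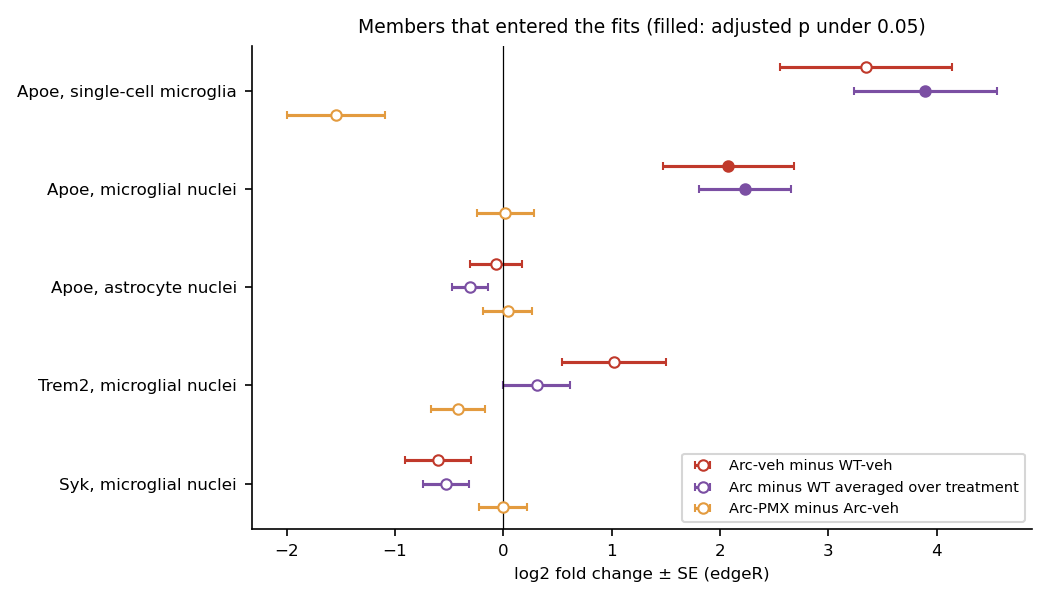
Log2 fold changes of the members tested by edgeR in microglial nuclei, single-cell microglia and astrocyte nuclei, with bars of 1 SE, for genotype on water (red), genotype averaged over treatment (purple) and PMX205 within Arc (orange). Filled points have an adjusted p under 0.05. Apoe in microglia lies above 0 for genotype (2.08 in nuclei, 3.35 in cells), and near 0 in astrocytes (-0.07).

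Within Arc, the 2 preparations of microglia were compared, since they differ in what part of a cell's RNA they hold. In Arc-veh, edgeR over all genes of both preparations gave 2.88 for Apoe (SE 0.36, adjusted p = 1.45e-07), 1.85 for Tyrobp (adjusted p = 0.000152), 0.80 for Trem2 (adjusted p = 0.0291) and -0.70 for Syk (adjusted p = 0.0422) as single cells minus nuclei, where 13.6% of genes were called. In Arc-PMX the values were 1.33 for Apoe (adjusted p = 0.0114), 0.66 for Tyrobp (adjusted p = 0.295), -0.04 for Trem2 (adjusted p = 0.950) and -0.50 for Syk (adjusted p = 0.145), where 21.1% were called. By edgeR, Apoe was thus called higher in cells in both groups. Tyrobp and Trem2 were called higher in cells and Syk lower in cells in Arc-veh alone, but their difference between the groups was not called (adjusted p of 0.699 or more). The planned exact permutation tests of log2 CPM in Arc-veh gave 2.43 for Apoe and 1.80 for Lyz2 (unadjusted p = 0.00433 for each, the smallest possible), 1.29 for Tyrobp (p = 0.0216), -0.81 for Syk (p = 0.0173) and 0.27 for Trem2 (p = 0.537, exact permutation). In Arc-PMX they gave 0.93 for Apoe (exact permutation p = 0.121), so the call of Apoe there rests on the edgeR fit. They also gave -1.003 for Syk (p = 0.0368, not passed in 8 of 12 tests with a well left out), -0.68 for Lyz2 (p = 0.102, and -0.88 with p = 0.0433 without single-cell Arc-PMX F3), 0.18 for Tyrobp (p = 0.682) and -0.12 for Trem2 (p = 0.597) there, all by exact permutation and unadjusted. Lyz2 was too sparse for the edgeR fit. The preparations also differ in CD11b selection, pooling of mice and depth, which cannot be told apart from the part of the cell sampled.

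Single-cell microglia fell into 8 clusters in which the members varied together, apart from Syk. These clusters were formed on the same cells, from genes other than the 5 members. No test was made, so the levels in them are a description. Apoe was highest, at 6928 CPM, in a cluster of 213 cells led by Ctsl, Rps27 and Ftl1, 208 of which came from Arc-veh. That cluster also held the highest Trem2 (871 CPM), Tyrobp (400) and Lyz2 (334). A cluster led by Spp1, Cd74 and Gpnmb, with 288 Arc-veh and 81 Arc-PMX cells and 2 WT cells, followed with 3673 CPM of Apoe and 439 of Trem2. Apoe was lowest, at 231 CPM, in a cluster led by the scavenger receptor Stab1 that held 2.54% of the microglia of Arc-veh, 13.9% of those of Arc-PMX, 44.3% in WT-veh and 75.2% in WT-PMX, and Lyz2 was at 0 there. The cluster with the most Arc-PMX cells held 40.5% of the microglia of Arc-PMX and 5.38% of those of Arc-veh, at 579 CPM of Apoe, and another at 595 CPM held 3.53% and 18.8%. The cluster with the most Apoe held 0.801% and 15.5%. Pooled over wells, cells of Arc-PMX and Arc-veh, whose Apoe levels are compared above, were thus spread differently over clusters. Arc-veh F1 and M2 gave 538 and 462 of the Arc-veh microglia, and these shares were not taken by well. Syk lay between 120 and 199 CPM in all 8 clusters and was highest in the Stab1-led one. Stab1 is also made by border macrophages, and 4 of 7 listed border macrophage markers were detected in WT-veh, with summed levels of 0 to 180 CPM in Arc-veh, 92.7 to 231 in Arc-PMX, 385 to 1217 in WT-veh and 813 to 1458 in WT-PMX. Stab1 made up 86.8% of the list's counts in WT-veh and 93.1% in WT-PMX. Of the 6 others, Mrc1, F13a1 and Cd163 had 1 to 4 counts each in WT-veh and WT-PMX, with Mrc1 at 37.8 CPM in WT-veh and 10.2 in Arc-veh, and Pf4, Lyve1 and Cbr2 had 0 there and 0 to 2 in the much deeper Arc groups. Without the Stab1-led cluster Apoe in Arc-PMX minus Arc-veh was -1.55 (adjusted p = 0.131 by edgeR), close to the -1.54 with it, and too few WT-veh wells were left to compare genotypes on water or on average.

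Outside microglia and astrocytes, Apoe was sparse and rarely separated groups. In oligodendrocyte nuclei it was 24.6 ± 18.3 CPM in WT-veh (n = 5) and 61.6 ± 24.1 in WT-PMX (n = 6), with an exact permutation p of 0.0130 that did not pass the correction (adjusted p = 0.123). Pericyte nuclei held 0 counts in all 4 Arc-PMX wells and 10 counts in the 4 Arc-veh wells (exact permutation p = 0.143). Endothelial nuclei ran from 0 to 77.4 CPM in Arc-veh and from 0 to 47.4 in WT-veh (p = 0.536, exact permutation). Choroid plexus nuclei held 22.3 ± 25.01 CPM in Arc-veh and 23.7 ± 16.4 in WT-veh (n = 4 each), and neuronal nuclei between 0.408 and 2.73 CPM over all 24 wells. In the single-cell vascular types only 1 WT-veh well had enough cells, so no genotype test was made.

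Genes around the members were read from lists on the same pathway, and their counts are to be set beside the 11.9% of genes called in microglial nuclei for Arc-veh minus WT-veh. Of 9 brakes on the pathway, 6 were tested and 1 rose, the inhibitory receptor Lilrb4a, which was at 0 in WT-veh and at least 5.82-fold higher (called by edgeR with Benjamini-Hochberg adjustment). Of 17 other listed receptors, most of which pair with Tyrobp or Fcer1g, 4 were tested, with Clec7a, a receptor for fungal glucans that engages Syk through its own tail, at least 5.12-fold higher and the sialic-acid lectin Siglech lower (-0.94). Lilrb4a and Clec7a passed the filter through the other groups, where they are higher, so they could only be called higher. The protease Adam10, which sheds Trem2, gave -0.56 (unadjusted p = 0.0821), and neither of the 2 shedding genes tested passed. The median log2 fold change over all 2192 genes was 0.03.

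Of 16 genes of Apoe lipidation and related apolipoproteins, 3 were tested and 1 rose, the lipoprotein lipase Lpl, at least 7.18-fold higher than in WT-veh, where it was at 0. Lpl passed the filter through the other groups, so it could only be called higher. Of 11 Apoe receptors, 3 were tested and 0 passed, also at an unadjusted p under 0.05, with Lrp1, the main endocytic receptor for Apoe, at 0.04. Of 13 lysozyme, cathepsin and phagosome genes, 5 were tested and 2 rose, the cathepsins Ctsb (1.87) and Ctsd (1.70). All 4 tested genes of the Trem2-independent step rose, Apoe itself, Ctsb, Ctsd and the metalloproteinase inhibitor Timp2 (1.25). Of the Trem2-dependent step, 12 of 17 passed the filter and 10 of these rose, among them the growth factor Csf1 (at least 14.1-fold) and Gpnmb (at least 5.71-fold). Csf1, Gpnmb, Lpl, Clec7a and Lilrb4a were at 0 in WT-veh and passed the filter through the other groups, where they are higher, so this count was in part set by the filter. Of 12 homeostatic genes, 11 were tested and 5 fell, including Olfml3 (-1.35), the selectin ligand Selplg (-1.07) and the fractalkine receptor Cx3cr1 (-0.85). In Arc-PMX minus Arc-veh edgeR called 0 of 61 listed genes tested in nuclei, with 1 at an unadjusted p under 0.05, and 0 of 40 in single cells, with 8, and DESeq2 called 0 of all genes in either.

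In single-cell microglia, averaged over treatment, 12.3% of all genes tested were called. There the same lists gave 4 of 4 tested genes higher for the Trem2-independent step, 5 of 5 for the Trem2-dependent step, with the receptor kinase Axl at 2.68, and 4 of 4 for the cathepsins, with Ctsd at 1.59 and Ctss at 1.14. Of 8 homeostatic genes tested, 2 were lower. Apoe and Lpl passed the filter on low counts through Arc wells, where they are higher. The counts for the steps that hold them were thus in part set by the filter. These calls rest on the average over treatment. On water alone Axl gave 0.77 (unadjusted p = 0.144) and Lpl 2.29 (adjusted p = 0.215 by edgeR), and Lpl had 0 counts in WT-PMX and 7 in WT-veh, all in F2. Without WT-veh F2 the counts were 3 of 5 tested for the Trem2-independent step, 4 of 7 for the Trem2-dependent step and 1 of 6 for the list with the cathepsins. Of 8 homeostatic genes tested, 1 was then lower. Ctsd was then at 1.39 (adjusted p = 0.0535 by edgeR) and Ctss at 1.28 (adjusted p = 0.0645). With any 1 well left out, 102 to 149 of all genes were called in this comparison. The share of all genes called without WT-veh F2 is not given, so these counts cannot be read against a background. Ctsb and Ctsd stand in both the list of the Trem2-independent step and the list with the cathepsins. The lipid exporter Abca1 fell by 0.78 on average (adjusted p = 0.0323 by edgeR with Benjamini-Hochberg adjustment). On water Abca1 gave -0.09 (unadjusted p = 0.827), WT-PMX minus WT-veh gave 1.67 (adjusted p = 0.0771), and without WT-veh F2 the averaged call was lost (-0.94, adjusted p = 0.0883). Of 14 kinases and adaptors below the receptor that were tested, 0 passed, with 3 at an unadjusted p under 0.05, against 12.3% of all genes. In astrocyte nuclei, where Apoe was not called, 3 of 6 tested lipidation genes rose in Arc-veh, the phospholipid transfer protein Pltp (1.84), Abca1 (0.77) and the apolipoprotein clusterin, Clu (0.74), against 12.6% of genes called. Of 45 listed genes tested in astrocyte nuclei for Arc-veh minus WT-veh, 10 were called. Among them the transcription factor Nfatc2 was higher (3.05), as were Cd9 (1.71), Gpnmb (1.55) and Ctsb (1.01). The inhibitory Fc receptor Fcgr2b was at 0 in WT-veh and at least 24.5-fold higher. Fcgr2b passed the filter through the other groups, where it is higher, so it could only be called higher.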

How the data were processed

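RNA of hippocampal cells and nuclei was barcoded by split pooling in 48 wells and sequenced as 7 sublibraries that share the wells. The deposited values are raw transcript counts per gene and barcode, which the authors made against mm10 with split-pipe of Parse (bcl2fastq is also named in the submitters' processing notes) without normalization or a filter on cells. Groups and replicate numbers of wells came from the deposited sample sheet, and no other per-sample column was present.

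Barcodes with more than 300 and fewer than 50000 transcripts were kept, with more than 300 genes and under 10% mitochondrial transcripts for cells, and more than 400 genes and under 1% for nuclei. Doublets scoring above 0.25 by Scrublet in scanpy 1.11.5 (expected rate 0.06) were removed, 1261 in all. Each preparation was clustered with leidenalg 0.10.2 (resolution 1 in cells, 1.5 in nuclei, 2000 variable genes, 30 components, 15 neighbours, seed 1). Naming a cluster took 3 or more markers of the type, each present in 10% of the cells, with no other type scoring close. The exclusions also covered clusters that were mostly doublets, that were shallow with no own marker leading, or whose leading genes belonged to another type. Clusters had been seen when the exclusions were set, and 914 cells and 5446 nuclei stayed unnamed. Counted with doublets, a cluster of 1003 nuclei and clusters of 456 and 278 cells among the unnamed scored best as microglia.

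Counts were summed per well and type over wells with at least 10 cells. The glmQLFit and glmQLFTest steps of edgeR 4.0.16 (R 4.3.3) were run after TMM and filterByExpr, in a fit of 4 groups and sex, with Benjamini-Hochberg adjustment at 0.05 over all genes of a type and contrast. Members too sparse for that fit, with at least 10 counts and 3 wells a group, were compared in CPM by two-sided exact permutation of wells, doubling the smaller tail. CPM are counts over all transcripts of the sum. Log2 CPM used a prior count of 2, scaled by the depth of each sum over the mean depth. Cells and nuclei were compared by exact permutation, as planned, and by edgeR across all genes, added after seeing the data. Intervals of shares are exact binomial at 95% and cover counting error only, and a floor is 3 counts over the group. Wells are separate pools or mice, so p-values measure the spread between them. Depths ranged from 1135 to 30001277 transcripts a well, and microglial values of WT rest on few counts in both preparations. The fit was also run on simulated counts with known changes, with an outcome that is not reported here.

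The members, marker genes and lists were chosen with earlier results of these data known. Besides the members and Lyz1, the genes named are, per list and type, up to 5 called genes with the largest change in Arc-veh minus WT-veh or the average over treatment, or, where none was called, the 2 of highest level, of which a choice is printed, and the 5 genes most like each member with a mean of at least 10 CPM. Some listed genes are not reported here. Alternatives were DESeq2 1.42.0, its size factors in edgeR, no filter on low counts, no sex term, only the groups compared, doublets kept, a stricter cell filter (over 500 transcripts and genes), at least 20 cells a well, cells named by their own marker score, a prior count of 0.5, no thinning, each well or sublibrary left out, and the replicate number as a block. Alternatives added after seeing the data were microglia without the Stab1-led cluster, Apoe per 100 ribosomal protein counts, edgeR for cells against nuclei, and listed genes without WT-veh F2. The test of microglial minus astrocyte nuclei and that of the PMX205 effect in cells minus nuclei were themselves chosen after seeing the data, with a prior count of 0.5 and, for the former, CPM and each well left out as alternatives. They count absolute differences, so their smallest possible p is lower where groups are unequal.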

Additional observations from a re-analysis of the deposited data

Results flagged for a closer look

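In single-cell microglia of Arc-PMX, Apoe in F1 was 2018 CPM, on 65 counts, and the 5 other wells lay between 208 and 777 CPM, so F1 stood apart by Dixon's criterion. The same well held 248 CPM of Tyrobp, on 8 counts, where the other wells lay between 0 and 75.3 CPM. Trem2 in Arc-PMX M3 was 208 CPM, on 4 counts, with the other wells between 113 and 135 CPM. These were 3 of 37 groups of 4 to 10 wells examined, and chance alone marks about 1 in 20.

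For Apoe the genotype difference was not the same in microglial and in astrocyte nuclei of the same mice. Microglia minus astrocytes differed by 3.40 on the log2 scale between Arc-veh and WT-veh, and by 3.27 between Arc and WT with permutations kept within treatment (exact permutation, p = 3.09e-05). For Lyz2 the effect of PMX205 in Arc microglia differed between single cells and nuclei by -2.20 on the log2 scale (exact permutation, p = 0.000965), and by -3.36 with a prior count of 0.5. Both tests were chosen after the data had been seen, and both sizes rest in part on wells with 0 counts.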

How the results depend on the processing

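The calls of Apoe in Arc minus WT averaged over treatment held under each setting run, in nuclei and in cells, and ran from 2.09 to 2.68 and from 3.52 to 6.47 with any 1 well left out. Depth limits the WT groups of both preparations. Apoe of single-cell microglia rests on 21 counts in WT-veh and 3 in WT-PMX. In microglial nuclei of WT-veh it rests on 0 counts in F1, 5 in M1, 3 in F2 and 0 in M2. Of 369 values from other settings for 59 results other than numbers of genes called, 327 kept their direction and side of the threshold, as did 633 of 701 with a well left out. The causes of the changes below were not tested.

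Single-cell Apoe in Arc-PMX minus Arc-veh passed with no filter on low counts (-1.64) and with the stricter cell filter (-1.92), and ran from -2.02 to -1.08 with a well left out. In Arc-veh minus WT-veh it passed by DESeq2 (3.75) and with no filter (3.64), and ran from 2.77 to 5.31. Per 100 ribosomal protein counts it was 2.14, with an unadjusted exact permutation p of 0.0357, the smallest possible. Apoe of microglial nuclei in Arc-veh minus WT-veh missed the threshold with at least 20 cells a well (1.86) and without sublibrary 5 (1.77) or 6 (1.82), and ran from 1.82 to 2.99. Syk averaged over treatment passed without sublibrary 1 (-0.59) or 6 (-0.64) and with 3 of 21 wells left out, and ran from -0.64 to -0.37. Astrocyte Apoe averaged ran from -0.46 to -0.16 and passed without Arc-PMX F1. Trem2 passed when cells were named by their own scores (1.98 for Arc-veh minus WT-veh, 1.35 averaged), and ran from 0.77 to 1.96. Single-cell Lyz2 in Arc-veh minus WT-veh ran from 82.2 to 113 CPM, and with 7 wells the test, which doubles the smaller tail, cannot reach 0.05.

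Signs turned in values that were not called, apart from Trem2 of cells minus nuclei in Arc-veh, which edgeR called and the planned test did not. Apoe of microglial nuclei in Arc-PMX minus Arc-veh was -0.22 with cells named by their own scores and -0.022, -0.041 and -0.046 without sublibrary 5, 6 or 7, and ran from -0.15 to 0.22. In WT-PMX minus WT-veh it was 0.084 without sublibrary 4 and ran from -0.61 to 0.62, and female minus male ran from -0.050 to 0.29. Astrocyte Apoe in Arc-veh minus WT-veh was 0.019 by DESeq2 and ran from -0.19 to 0.23 and Arc-PMX minus Arc-veh ran from -0.29 to 0.17. Syk in Arc-PMX minus Arc-veh was 0.00011 with DESeq2 size factors, 0.00081 with no filter, 0.016 with no sex term, 0.047 with the stricter cell filter, and 0.085, 0.090 and 0.15 without sublibrary 2, 6 or 7, and ran from -0.11 to 0.12. Tyrobp of cells minus nuclei in Arc-PMX was -0.0020 with a prior count of 0.5 and ran from -0.19 to 0.60, and Trem2 in Arc-veh, by the planned test, from -0.012 to 0.50. In CPM, single-cell Syk ran from -53.3 to 11.5 for Arc-veh minus WT-veh and from -31.2 to 7.44 for Arc-PMX minus Arc-veh, and Tyrobp in nuclei from -6.98 to 2.65.

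Same-numbered wells are different mice. At most 4 of 6 pairs correlated over 0.1, in microglial nuclei of Arc-PMX and Arc-veh, where 5 of 6 wells were most like their own number. With the replicate block, single-cell Apoe was 2.50 for genotype on water, -1.49 for PMX205 within Arc and 3.27 for the average, astrocyte Apoe turned to -0.050 for Arc-PMX minus Arc-veh and 0.0098 for Arc-veh minus WT-veh, and genes called in single cells on average fell from 138 to 72. Genes called were 11 by DESeq2 and 28 with no filter in place of 0 (single cells, Arc-veh minus WT-veh), 35 with no filter, 15 with the stricter filter and up to 21 with a well left out in place of 0 (Arc-PMX minus Arc-veh), 80 without sublibrary 6 or 7 in place of 138 (average), and 718 with no filter in place of 445 (nuclei, average). For Arc-veh minus WT-veh in nuclei, 158 were called with cells named by their own scores in place of 261. With any 1 well left out this count ran from 158 to 275. With at least 20 cells a well, the stricter filter or cells named individually, or without the Stab1-led cluster, too few WT-veh single-cell wells were left for a comparison with Arc-veh or the average over treatment, and Arc-PMX was not compared with WT-PMX alone.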
